A study of Mus musculus with 7 samples.

Results

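Genes of the muscle extracellular matrix and its cell contacts were examined in resting soleus, a hindlimb muscle rich in slow, oxidative fibres. The members were all spots that the array's platform annotation assigns to Itgb1, Lama2, Lamb2, Fn1, Tnc, Tnxb, Timp1 or Timp2. This gave 9 spots for 8 genes, out of 205 named spots for 203 genes, because Fn1 had 2 spots. The gene identifiers of all 8 members matched the same symbols in the mouse RefSeq gene table.

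The 7 samples form 1 group, soleus of wild-type 129/SV mice kept as cage controls, with total RNA taken from sections of the muscle belly. The labels give neither age nor sex. In the sample titles, replicate 5 has the code C16 where the other 6 have C15, without an explanation. The labels do not say whether each sample is a different animal, so p-values measure the spread between these samples, which may be partly technical.

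Each value is a spot's share, in percent, of the total signal on its array, a total that leaves out spot 1M and the spot for 28S ribosomal RNA. The floor of an array is the 10th percentile of its 223 spots. A signal was called above background where it exceeded 2 times that floor. The floors ran from 0.02% in replicate 5 to 0.13% in replicate 1, with array medians from 0.06% to 0.20%. Values were deposited in steps of 0.01%, so on the arrays with a low floor a ratio rests on few digits. Because labelling used gene-specific primers, each gene was compared with the floor and with itself across samples, and levels of different genes were not ranked. Sums and medians over several genes also rest on these signals and are given as descriptions.

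Muscle fibres sit in a basement membrane built on laminins, which are trimers of an alpha, a beta and a gamma chain. Integrins carrying the beta 1 subunit and the dystroglycan complex tie this membrane to the fibre's cytoskeleton. Fibronectin and the tenascins belong to the interstitial matrix around fibres and at tendon junctions, and tenascin C is known to appear with loading and repair. Metalloproteinases cut these proteins, and the tissue inhibitors of metalloproteinases (TIMPs) block the proteases.

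In resting soleus, the integrin subunit Itgb1 and the protease inhibitor Timp2 exceeded 2 times the floor on all 7 arrays, and the other 7 member spots did not. These 2 of 9 spots compare with 44 of 205 named spots on the array, or 21.5%, so the share among the members lay near the background. A limma fit of the log2 ratio to 2 times the floor over all named spots placed the same 2 member spots above that limit at an adjusted p under 0.05, against 25.9% of named spots. It placed Lama2 and the Fn1 spot 4D below the limit, against 39% of named spots. The remaining 5 member spots did not pass in either direction, and a miss does not show that they lay at the limit. With the ratio set against the floor itself, 7 of the 9 member spots lay above it on all arrays, as did 137 of the 205 named spots. Counts above 2 times the floor differed by array. Replicate 1, with the highest floor, had 2 member spots and 60 named spots above it. Replicates 4 and 5, with the lowest floors, each had 7 member spots, with 101 and 122 named spots.

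**Figure D1:**
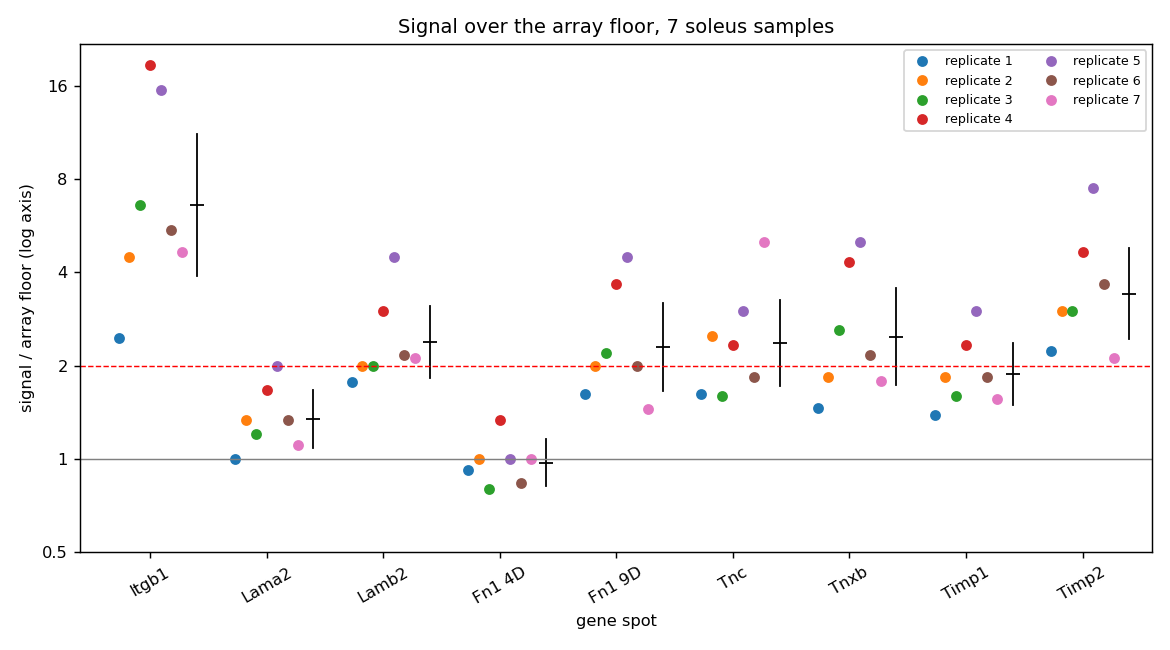
Signal divided by the array floor (log axis) for the 9 member spots; coloured points are the 7 samples, the black bar is the geometric mean with its 95% interval from the limma fit, the grey line marks the floor and the dashed line 2 times the floor. All 7 points of Itgb1 and Timp2 lie above the dashed line, all points of Fn1 4D lie below it, and those of Lama2 lie below it or, in replicate 5, on it.

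Itgb1, the beta subunit shared by the laminin and fibronectin receptors, had a signal of 0.363% ± 0.0979 (SD, n = 7). The lowest value was 0.27% in replicate 2, the median 0.33% and the highest 0.56% in replicate 4. Replicate 7 was also high as deposited, at 0.42%, and the other 5 samples lay between 0.27% and 0.33%. After quantile normalization, Itgb1 in replicate 7 deviated by -0.26 log2 units from its mean over samples. All 11 spots within 2 grid steps of Itgb1 were above their own means there, by a median of 0.36. The part of array position in the Itgb1 value was not tested. The ratio to the floor ran from 2.46 in replicate 1 to 18.7 in replicate 4, with a geometric mean of 6.60 (95% interval 3.89 to 11.2). This mean exceeded 2 times the floor by 1.72 ± 0.33 log2 units (SE; limma, Benjamini-Hochberg adjusted p = 0.00174). The wide range of the ratio came with differences in both the floor and the signal. Replicate 1, with the highest floor, had an Itgb1 signal of 0.32%, and replicate 5, with the lowest, had 0.31%. Replicate 4, with the highest ratio, had a floor of 0.03% and the highest signal, 0.56%.

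The other integrin subunits of the matrix and adhesion list did not reach that limit on all arrays. Itga2, an alpha subunit of collagen receptors, averaged 0.0657% ± 0.0424 (SD, n = 7) and exceeded 2 times the floor on 0 arrays. Itgav, the alpha subunit of vitronectin receptors, averaged 0.0829% ± 0.0377 and exceeded it on 0. Itgb5, which pairs with Itgav, averaged 0.134% ± 0.0276 and exceeded it on 4 of 7. In the limma fit Itga2 and Itgav lay below 2 times the floor (adjusted p = 3.92e-05 and 0.0129), and Itgb5 did not pass (adjusted p = 0.283).

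Lama2, the alpha 2 laminin chain of the muscle basement membrane, stayed close to the floor. Its signal was lowest at 0.04% in replicate 5, had a median of 0.08% and was highest at 0.13% in replicate 1, where it equalled the floor. The ratio to the floor had a geometric mean of 1.34 (95% interval 1.08 to 1.66), and on 0 of 7 arrays did it exceed 2. The mean lay 0.57 log2 units under 2 times the floor, a log2 difference of -0.57 ± 0.14 (SE; limma, adjusted p = 0.00510). In an exact sign-flip permutation test over the samples the call was lost (adjusted p = 0.0543).

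Lamb2, the beta 2 laminin chain, which is concentrated at the neuromuscular junction, lay around 2 times the floor. Its signal ran from 0.09% in replicates 4 and 5, through a median of 0.12%, to 0.23% in replicate 1. It exceeded 2 times the floor on 4 arrays, equalled that value on 2 and was below it on 1, replicate 1, where the signal was highest. The geometric mean of the ratio was 2.38 (95% interval 1.83 to 3.11; limma, adjusted p = 0.221 against 2 times the floor). With quantile normalization first, Lamb2 exceeded the limit on all arrays, in addition to Itgb1 and Timp2.

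The list held 6 further laminin chains on the array, and none of the 8 chains exceeded 2 times the floor on all 7 arrays. Lamc1, the gamma 1 chain that joins Lama2 and Lamb2 in muscle laminins, averaged 0.156% ± 0.0439 (SD, n = 7) and exceeded the limit on 4 arrays, with a ratio of up to 7. Lamb1, the beta 1 chain, averaged 0.101% ± 0.0754 and exceeded it on 1 array. Of the 8 chains, 0 passed above and 3 passed below the limit in the limma fit. Over named spots, 25.9% passed above and 39% below, so the share of chains below lay near the background. The 3 chains below were Lama2, Lama3 and Lamb3, the last 2 being chains of epithelial laminin. Lama4 and Lama5, chains of vessel wall laminins, averaged 0.104% ± 0.0360 and 0.110% ± 0.0594.

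Fn1, fibronectin, was read by 2 spots with the same annotated sequence record, and these differed. Spot 4D ran from 0.02% in replicate 5, through a median of 0.05%, to 0.12% in replicate 1, and exceeded the floor itself on 1 array, replicate 4. Spot 9D ran from 0.09% in replicate 5, through a median of 0.12%, to 0.21% in replicate 1, and exceeded the floor on all 7. Spot 9D was the higher on 7 of 7 arrays; no ratio between the spots is given, because 4D was near the floor. The geometric mean of the ratio to the floor was 0.972 (95% interval 0.815 to 1.16) for 4D and 2.30 (1.66 to 3.19) for 9D. Against 2 times the floor, 4D lay below (limma, adjusted p = 5.11e-05) and 9D did not pass (adjusted p = 0.425). Neither spot exceeded 2 times the floor on all arrays.

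Tnc, tenascin C, ran from 0.06% in replicate 5, through a median of 0.11%, to 0.45% in replicate 7. Replicate 7 stood apart, and the next value was 0.21% in replicate 1, where the floor was 0.13%. The ratio to the floor was 5 in replicate 7 and between 1.60 and 3 in the other samples, and it exceeded 2 on 4 arrays. The geometric mean was 2.37 (95% interval 1.72 to 3.25; limma, adjusted p = 0.318). Spots near Tnc on the array were also high in replicate 7. All 5 spots within 2 grid steps, those of Pole2, Lamb1, Dgat1, Top1 and Il6, were above their own means there, by a median of 0.86 log2 units after quantile normalization, against 1.31 for Tnc. The part of array position in the Tnc value was not tested.

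Tnxb, tenascin X, a tenascin of connective tissue known for its role in collagen organisation, had a narrower range. Its signal was lowest at 0.10% in replicate 5, had a median of 0.13% and was highest at 0.19% in replicate 1. It exceeded 2 times the floor on 4 arrays, replicates 3, 4, 5 and 6, with ratios from 1.46 to 5. The geometric mean was 2.48 (95% interval 1.74 to 3.55; limma, adjusted p = 0.260).

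Timp2, an inhibitor that also takes part in activating pro-MMP2 at the cell surface, had a signal of 0.189% ± 0.0527 (SD, n = 7). It ran from 0.14% in replicate 4, through a median of 0.18%, to 0.29% in replicate 1. The ratio to the floor ran from 2.11 in replicate 7 to 7.50 in replicate 5, with a geometric mean of 3.42 (95% interval 2.43 to 4.81). The mean exceeded 2 times the floor by 0.77 ± 0.22 log2 units (SE; limma, adjusted p = 0.0118). Rounding bears on the call in replicate 7: a signal of 0.19% over a floor of 0.09% allows a ratio as low as 1.95, while for Itgb1 the lowest ratio that rounding allows is 2.33. With the 20th percentile as floor, Timp2 no longer exceeded the limit on all arrays, and Itgb1 did.

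Timp1, the family member known to be induced by inflammation and injury, ran from 0.06% in replicate 5, through a median of 0.11%, to 0.18% in replicate 1. It exceeded 2 times the floor on 2 arrays, replicates 4 and 5. The geometric mean of its ratio was 1.87 (95% interval 1.49 to 2.36; limma, adjusted p = 0.607). It passed below the limit with the 20th percentile as floor (limma, adjusted p = 0.00914) and with quantile normalization first (limma, adjusted p = 0.0178). Timp3, an inhibitor bound to the matrix, averaged 0.151% ± 0.0438 (SD, n = 7), exceeded the limit on 6 of 7 arrays and missed it in replicate 1, where its ratio was 1.62 (limma, adjusted p = 0.0756).

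Of the proteases these inhibitors act on, none exceeded 2 times the floor on all arrays. The 8 metalloproteinase genes on the array lay between 0.02% and 0.26% in all samples, and 7 of them exceeded the limit on 0 arrays. The exception was Mmp2, the gelatinase of fibroblasts, at 0.103% ± 0.0315 (SD, n = 7), which exceeded it on 2. In the limma fit 0 of 8 passed above and 7 passed below: Mmp3, Mmp8, Mmp9, Mmp10, Mmp11, Mmp12 and Mmp14. Over named spots, 25.9% passed above and 39% below. Mmp14, the membrane protease that works with Timp2 on pro-MMP2, averaged 0.0957% ± 0.0752, and its highest value, 0.26% in replicate 1, equalled 2 times the floor. In the plasminogen system, Plau, Plaur and Plg passed below the limit and Plat did not pass in either direction, with means from 0.0686% to 0.107%.

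Over the whole list of matrix and adhesion genes, 33 were on the array, and 2 of these, Itgb1 and Timp2, exceeded 2 times the floor on all 7 arrays. Over all named genes the share was 44 of 203, or 21.7%. The median over genes of the mean log2 distance from 2 times the floor was -0.38 for the 33 list genes, -0.43 for the 25 that are not members, 0.25 for the 8 members and -0.16 for all 203 genes. Without replicate 1, Timp3 joined Itgb1 and Timp2, giving 3 genes. The members were chosen with earlier results in view, so their median is a description.

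**Figure D2:**
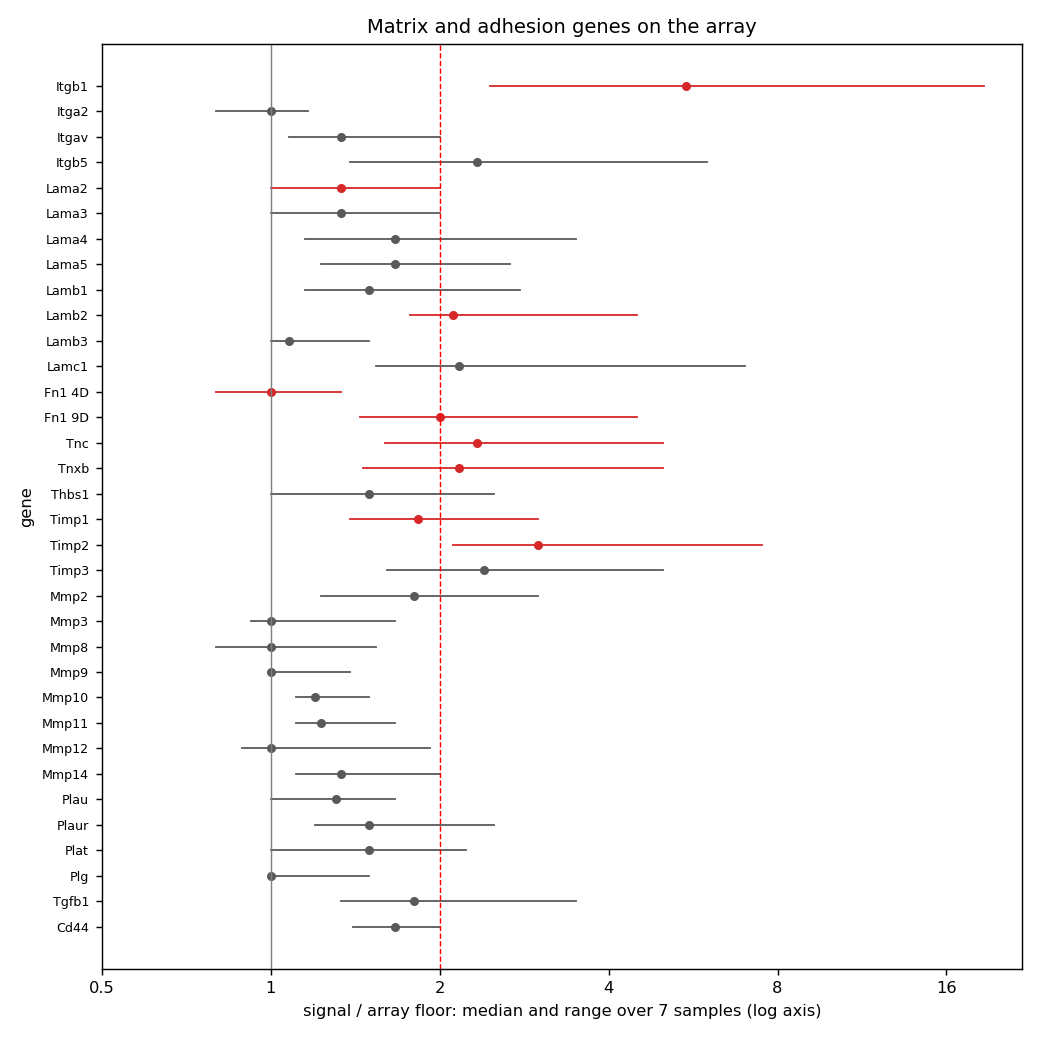
Signal divided by the array floor (log axis) for each spot of the 33 matrix and adhesion genes on the array, in the order of the list; dots are medians and lines the range over 7 samples, with members in red and the other genes in grey. Only the lines of Itgb1 and Timp2 lie wholly to the right of the dashed line at 2 times the floor, and most metalloproteinase lines lie to its left.

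The labelled tissue was checked by its markers. All 7 muscle fibre markers on the array, Myh7, Myh2, Myh1, Myh4, Mb, Des and Ttn, exceeded 2 times the floor on every array, with a summed signal of 23.25% to 31.97%. Of the other cell types that a muscle section holds, 1 of 5 endothelial markers (Cdh5) and 1 of 2 adipocyte markers (Fabp4) did so. The endothelial markers Pecam1, Kdr, Flt1 and Tek exceeded the limit on 6, 5, 1 and 0 arrays. Pparg, the other adipocyte marker, exceeded it on 0 arrays and lay below it in the limma fit (adjusted p = 0.000953), so the 2 adipocyte markers differed. The only listed fibroblast marker on the array, Pdgfra, exceeded the limit on 3 arrays, at 0.121% ± 0.0438 (SD, n = 7), and 0 of 2 immune and 0 of 3 satellite cell markers exceeded it on all arrays. The summed signal ran from 0.45% to 1.06% for the endothelial, from 0.05% to 0.43% for the immune and from 0.09% to 0.73% for the satellite cell markers. No marker was listed at 0, and the nerve and tendon lists had 0 genes on the array. In whole muscle, fewer cells of a type and less RNA per cell cannot be told apart, and the part of these cell types in the member signals was not tested.

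Signals of 8 of the 9 member spots moved with the floor of their array. The correlation of log2 signal with log2 floor over the 7 samples passed for them at an adjusted exact permutation p under 0.05, as it did for 144 of 205 named spots, or 70.2%. It was highest for Lama2 (Pearson r = 0.988, exact permutation p = 0.000397, the smallest that 5040 pairings gave here, adjusted over named spots p = 0.00271; Spearman rho = 1, adjusted p = 0.00232). Timp1 had r = 0.975 (adjusted exact p = 0.00271; rho = 1, adjusted p = 0.00232) and Fn1 4D had r = 0.965 (adjusted exact p = 0.00428; rho = 0.982, adjusted p = 0.00243). Itgb1 did not pass, with r = -0.185 (exact permutation p = 0.706, adjusted p = 0.738; rho = -0.0273, adjusted p = 0.966). Without replicates 1 and 5, whose floors lie farthest from the median, r was 0.966 for Lama2, 0.949 for Timp1, 0.862 for Fn1 4D and -0.483 for Itgb1. A spot near the floor helps to set it and shares its array's sum, so these values describe the signals and are not evidence about transcripts.

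For the other 5 spots that passed, r over the 7 samples was lower. Lamb2 had r = 0.923, Fn1 9D 0.883, Tnxb 0.835, Timp2 0.831 and Tnc 0.825 (adjusted exact permutation p from 0.00715 to 0.0325 over these 5). Spearman's rho was 0.982, 0.991, 0.785, 0.873 and 0.955 in that order, and for Tnxb it did not pass (adjusted exact p = 0.0550). Without replicates 1 and 5, r was 0.927 for Lamb2, 0.891 for Fn1 9D, 0.416 for Tnxb, 0.731 for Timp2 and 0.872 for Tnc. With each replicate left out in turn, Lama2, Fn1 4D and Timp1 passed every time. The number of spots that passed was 4 without replicate 1, which lost Lamb2, Tnc, Tnxb and Timp2, and 5 without replicate 4, which lost Fn1 9D, Tnc and Timp2. Over the 205 named spots the number also dropped from 144, to 97 without replicate 1 and 123 without replicate 4.

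**Figure D3:**
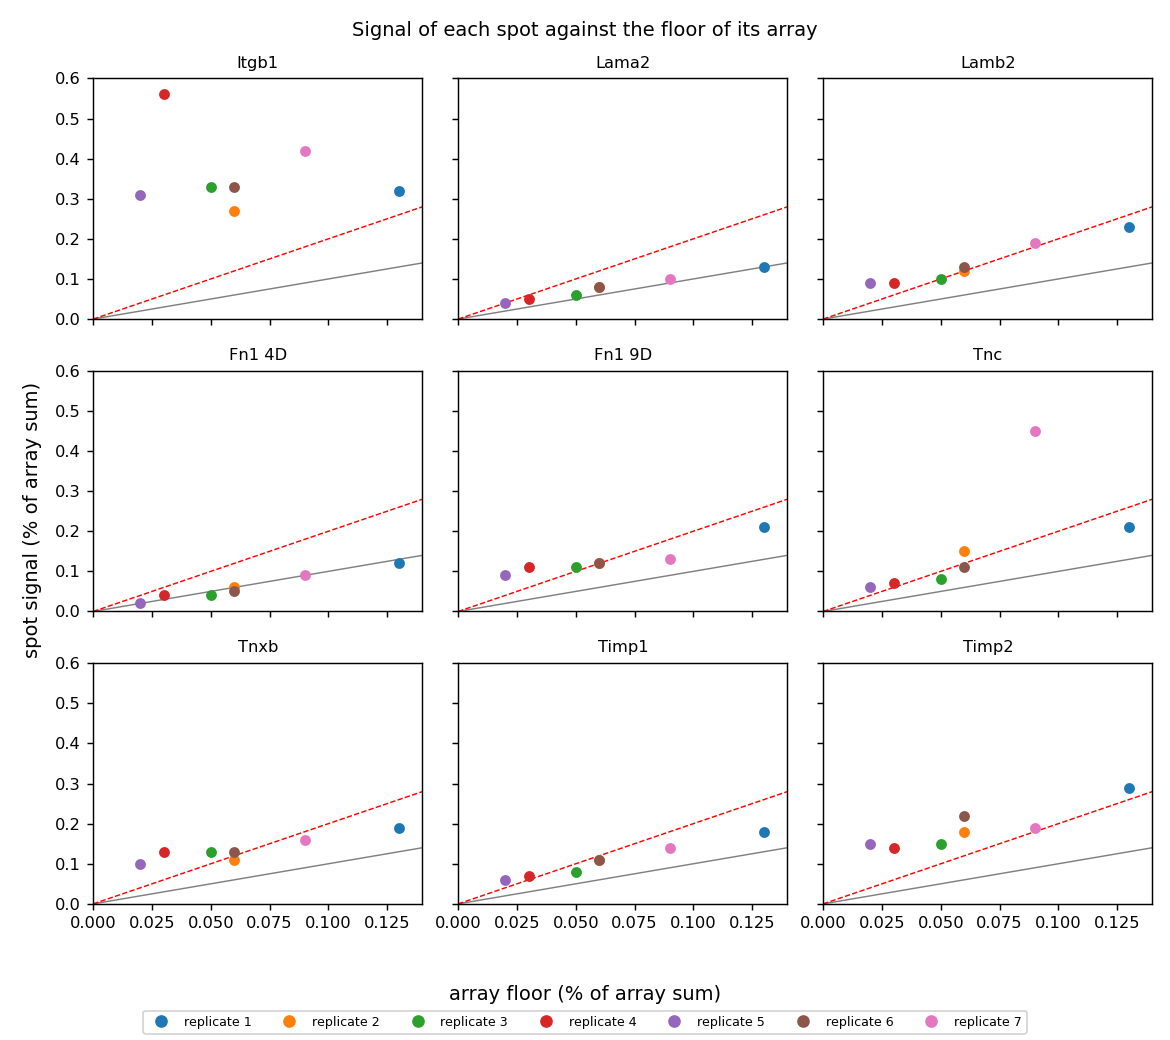
Spot signal against array floor, both in percent of the array sum, with 1 panel per member spot and 1 point per sample; the grey line marks signal equal to the floor and the dashed line 2 times the floor. The points of Fn1 4D lie on the grey line or within 0.01% of it on either side, and those of Lama2 lie on or just above it. Those of Itgb1 show no rise with the floor.

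Signals were also expressed as an excess over the floor, in percent of the array sum. Timp1 exceeded the floor by 0.03% to 0.05% of the array sum in all 7 samples, with a mean excess of 0.0443% ± 0.00787 (SD, n = 7). For Timp2 the excess was 0.10% to 0.16%, for Lamb2 0.05% to 0.10%, highest in replicates 1 and 7, whose floors were the highest, for Tnxb 0.05% to 0.10% and for Fn1 9D 0.04% to 0.08%. Lama2 lay 0 (in replicate 1) to 0.02% above the floor and Fn1 4D between -0.01% and 0.01%, which is within 1 or 2 steps of the deposited values. Itgb1 ranged from 0.19% to 0.53%, and Tnc from 0.03% to 0.09% in 6 samples with 0.36% in replicate 7.

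**Figure D4:**
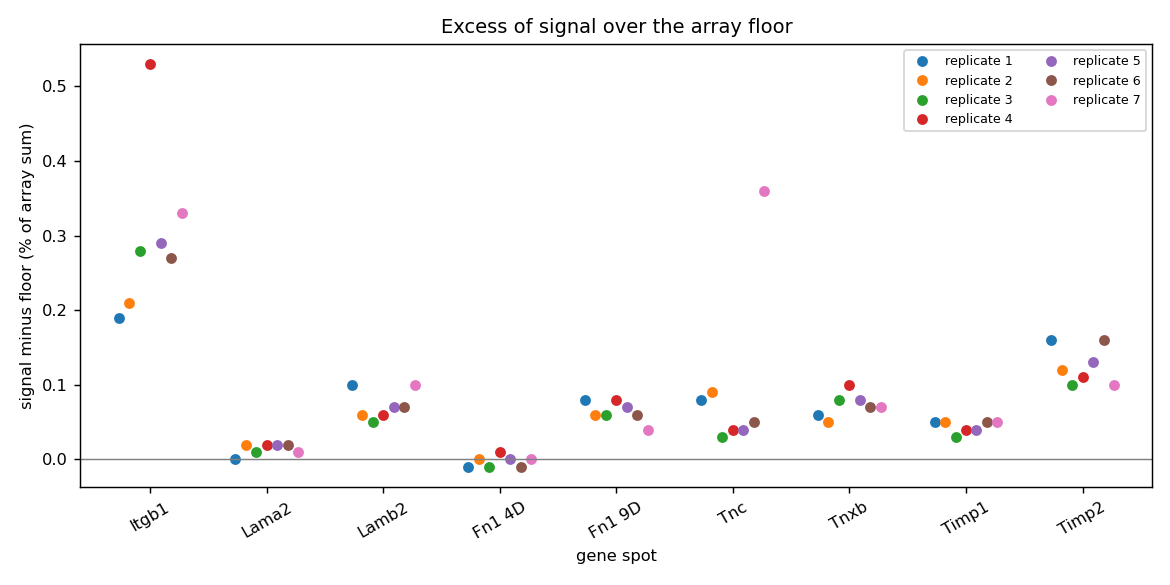
Signal minus the array floor, in percent of the array sum, for the 9 member spots; points are the 7 samples and the grey line marks 0. The points of Timp1 lie within 0.03% to 0.05%, those of Timp2 within 0.10% to 0.16%, and Tnc in replicate 7 and Itgb1 in replicate 4 stand highest.

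The spread between samples depended on the scale for most members. After quantile normalization, which makes the distribution of values equal on all arrays, the SD of the log2 signal was 0.61 for Tnc, 0.46 for Itgb1 and 0.37 for Tnxb, against a median of 0.25 over the 205 named spots. It was 0.08 for Lamb2, 0.13 for Fn1 4D, 0.14 for Timp1 and 0.18 for Lama2. These spots lay near the floor or near 2 times the floor, but so did Tnc, Tnxb and Fn1 9D, whose SDs were 0.61, 0.37 and 0.29. In log2 deposited values the order differed, with 1.03 for Tnc, 0.85 for Fn1 4D and 0.53 for Lamb2, and the smallest SDs were 0.31 for Tnxb and 0.35 for Itgb1, against a median of 0.69. As a coefficient of variation of deposited values, Tnxb had 22.5%, Itgb1 26.99%, Timp2 27.97%, Fn1 4D 56.9% and Tnc 85.3%. Tnc alone among the members had an SD above the upper quartile of named spots on both of these scales, and without replicate 7 its quantile-normalized SD was 0.22.

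**Figure D5:**
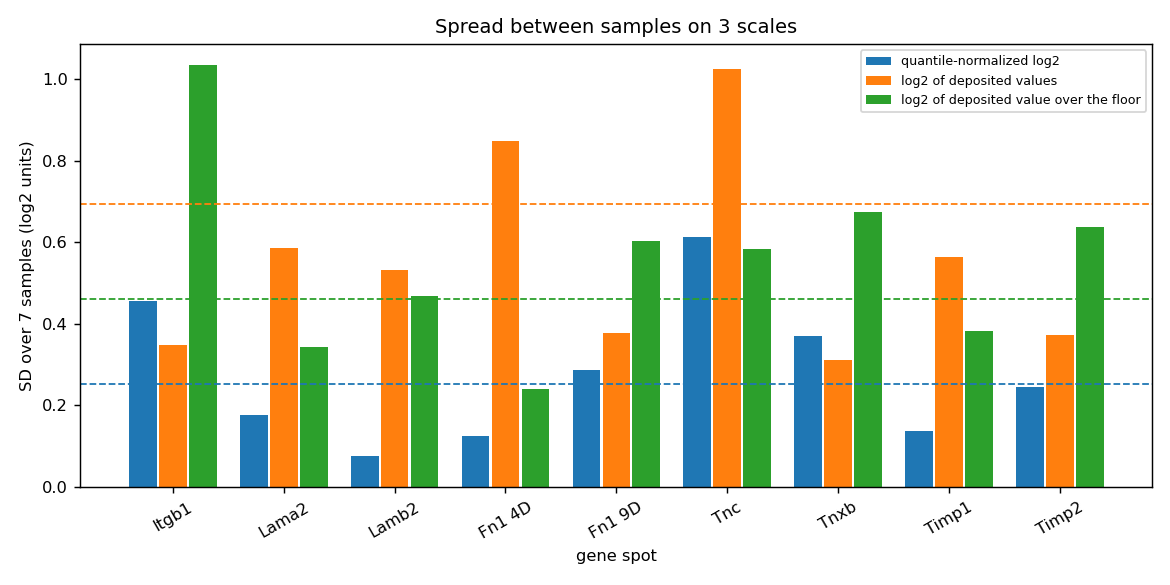
SD over the 7 samples, in log2 units, of each member spot after quantile normalization (blue), as deposited (orange) and as a ratio to the floor (green); dashed lines are the medians over the 205 named spots on the same scales. Itgb1 has its smallest SD, 0.35, as deposited and its largest, 1.03, as a ratio to the floor, and Lamb2 has the smallest SD of the members after quantile normalization, 0.08.

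Member pairs were compared over samples on the quantile-normalized scale, 5 pairs in all. The 2 Fn1 spots did not vary together there (r = 0.0852, exact permutation p = 0.848, adjusted p = 0.848; rho = -0.0546, adjusted p = 0.924). Leaving out replicates 4 and 6 gave r = -0.482. As deposited, they did (r = 0.899, adjusted exact permutation p = 0.00794; rho = 0.991, adjusted p = 0.00397), on a scale where both moved with the floor. Itgb1 and the mean of the Fn1 spots, a receptor subunit and its ligand, had an r of 0.859 (exact permutation p = 0.00635, adjusted p = 0.0317; rho = 0.883, adjusted p = 0.0754). Without replicates 3 and 4 r was 0.599, and the call was lost when replicate 1, 3, 4, 5 or 6 was left out (adjusted exact p from 0.0556 to 0.306). The call was also lost with equal array medians (r = 0.595, adjusted exact permutation p = 0.423), after removal of the trend in grid position (r = 0.754, adjusted exact p = 0.106) and as deposited (r = -0.0330, adjusted exact p = 0.934). As ratios to the floor, which both share, r was 0.923 (adjusted exact permutation p = 0.0172) and rho did not pass (0.714, adjusted exact p = 0.147).

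After quantile normalization, no call was made for the remaining 3 pairs. Timp1 with Timp2 had an r of 0.663 (exact permutation p = 0.104, adjusted p = 0.260; rho = 0.685, adjusted p = 0.250), and 0.629 without replicates 1 and 7. Lama2 with Lamb2 had an r of 0.477 (exact permutation p = 0.310, adjusted p = 0.387; rho = 0.356, adjusted p = 0.595), and without replicates 1 and 7 the remaining 5 values of Lama2 were equal and gave no r. Tnc with Tnxb had an r of -0.468 (exact permutation p = 0.308, adjusted p = 0.387; rho = -0.482, adjusted p = 0.492), and -0.0567 without replicates 2 and 7. As deposited, the TIMP pair and the laminin pair passed, at r = 0.896 and 0.949 (adjusted exact permutation p = 0.00794 and 0.00397), and both pairs also moved with the floor there. As ratios to the floor, which the spots of a pair share, r was 0.967 and 0.939 (adjusted exact permutation p = 0.00794 for each). On that scale rho passed for the TIMP pair (0.901, adjusted exact p = 0.0476) and not for the laminin pair (0.845, adjusted exact p = 0.0565).

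The genes most like each member over the 7 samples are given as a description, by Pearson r after quantile normalization. Among 41 genes above 2 times the floor, Itgb1 was most like Fgfr2, a fibroblast growth factor receptor (r = 0.897), and Myh7, the slow myosin heavy chain (r = 0.857), and Timp2 was most like Slc2a2 (r = 0.788) and Rps29 (r = 0.777). Among 200 genes, Lama2 was most like Timp1 (r = 0.959) and Vegfa (0.949). On this scale Lama2 had equal values in replicates 2 to 6, so its variation came from replicates 1 and 7 alone. Timp1 was most like Vldlr (0.967) and Lama2, and Lamb2 most like Vhl (0.823) and Igfbp3 (0.815). Fn1 9D was most like Thbs1, another matrix glycoprotein (0.987), and Igf2r (0.983), and Fn1 4D most like Itgav (0.850) and Mmp3 (0.814). Tnc was most like Il6 (0.953), whose spot lies 2 grid steps away, and Fgfr3 (0.936), and Tnxb most like Dmpk (0.938), whose spot lies 1 grid step away, and Acadl (0.920). As deposited, r was 0.216 for Itgb1 with Myh7, -0.453 for Timp2 with Rps29, and 0.164 and -0.237 for Tnxb with Dmpk and Acadl, so these likenesses belong to the quantile scale.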

How the data were processed

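Total RNA of 7 soleus samples was copied to cDNA from gene-specific primers with a radioactive nucleotide, 1 array each, per the labels' protocols. The authors deposited 1 linear ratio per spot and sample. Column sums without spot 1M and the 28S spot lay between 0.9986 and 1.0002, so the ratio is printed as a percent of that sum. How the images were quantified and whether background was subtracted is not stated in the labels. No counts or detection calls were used, so the number of arrays limits the precision.

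Replicates are numbered in accession order. Signals were divided by the 10th percentile of all spots of the array. The log2 ratio minus log2 of 2 was fitted with limma 3.58.1 in R 4.3.3 over 205 named spots, intercept only, two-sided, with Benjamini-Hochberg adjustment. The floor is shared by all spots of an array, so the errors of spots are not independent. Spread, likeness and pairs used log2 values after quantile normalization over 223 spots, without a pseudocount. Permutation tests were exact over pairings, two-sided (Python 3.11.15, scipy 1.17.1). The fit was also run on simulated data with independent normal errors, which do not cover the shared floor or the rounding of the values. The members, the lists and the floor were chosen with earlier results of these data known; the correlation with the floor was added after seeing the values. Named genes are the members, list genes above 2 times the floor, listed proteases and inhibitors, the 2 genes most like each member, markers, and neighbours of spots with an outlying sample. Further integrin and laminin chains of the list were named after their values were seen. Alternatives covered the floor's percentile, its multiple, scale, position trend, rounding and each replicate left out.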

Additional observations from a re-analysis of the deposited data

Results flagged for a closer look

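Of the 9 member spots, examined on the quantile-normalized scale and as a log2 ratio to the floor, 2 had 1 sample far from the other 6, both on the quantile-normalized scale. About 1 in 20 groups would do so by chance. For Tnc, the gap from replicate 7 to the nearest sample was 0.649 of the whole range, with replicate 7 high; with the trend in grid position removed it was 0.621, and as a ratio to the floor 0.448, under the limit for 7 samples. For Timp2, the gap was 0.569 of the range, just past that limit, with replicate 7 low by 0.49 log2 units from the mean over samples. With the trend in grid position removed, replicate 7 was no longer the extreme: the largest gap was 0.250, for replicate 6 on the high side, and did not pass. Its deposited value there, 0.19%, lay inside the range of the other samples, 0.14% to 0.29%. Of the 11 spots within 2 grid steps of Timp2, 2 were above their own means in replicate 7, with a median deviation of -0.15. With the trend in grid position removed, Timp1 (0.691, replicate 1 low) and Lama2 (0.575, replicate 7 low) also passed the limit. The part of position in any of these values was not tested.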

How the results depend on the processing

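The count of 2 member spots above 2 times the floor on all arrays, Itgb1 and Timp2, was 2 with each replicate left out, and the 2 in the limma fit and the 2 below it (Lama2 and Fn1 4D) were the same spots each time. With the 20th percentile as floor the count on all arrays was 1 (Itgb1), and so it was for the matrix and adhesion list. Of the named spots, 40 exceeded that limit on all arrays. The limma fit then placed 50 of the named spots above and 110 below, with Timp1 joining the members below. At 1.5 times the floor the counts were 4 members (Lamb2 and Tnc added) and 6 list genes, with 6 members above and 1 below in the limma fit; over the 205 named spots these counts were 69 on all arrays, 84 above and 36 below. At 3 times the floor they were 0 members and 0 list genes on all arrays. The limma fit then placed 1 member (Itgb1) above and 3 below (Lama2, Fn1 4D and Timp1). Of the named spots, 32 exceeded that limit on all arrays, and 38 lay above and 130 below it in the limma fit. With quantile normalization first there were 3 members on all arrays (Lamb2 added), with 52 of the named spots. In the limma fit Timp1 joined the members below, and 104 of the named spots lay below. At the lowest ratio that rounding allows, chosen after seeing the data, the count was 1 (Itgb1). The exact sign-flip permutation test over samples left 1 spot below (Fn1 4D), and Lama2 had an adjusted p of 0.0543. These limits change the question asked, so the mean log2 distance changed sign for spots near them: with the 20th percentile to -0.043 for Fn1 9D and -0.0012 for Tnc, at 1.5 times the floor to 0.32 for Timp1, and at 3 times to -0.33 for Lamb2, -0.38 for Fn1 9D, -0.34 for Tnc and -0.27 for Tnxb. The median SD of the members, 0.25, was 0.53 as deposited and 0.58 as a ratio to the floor, and 0.18 to 0.27 with 1 replicate left out. For the Fn1 spots r was 0.899 as deposited, -0.149 with equal medians, -0.351 with the position trend removed, and -0.360 to 0.407 with 1 replicate left out, the lowest without replicate 4. Tnc with Tnxb turned to 0.676 as deposited and 0.0978 over the floor, Itgb1 with Fn1 to -0.0330 as deposited, and Lama2 with Lamb2 to -0.317 with the position trend removed. The count of spots that moved with the floor was 4 to 7 with 1 replicate left out, against 8. For the SD with the floor subtracted, Fn1 4D (6 values at or under 0) and Lama2 (1) gave no value. The cause of these changes was not tested. No paired analysis was possible because there is 1 group.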
